A study of Mus musculus with 12 samples.

Results

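The hypoxia response and glycolysis genes described here are 10 mouse genes that low oxygen is known to induce: Adm, Ankrd37, Bnip3, Egln3, Vegfa, Slc2a1, Pfkfb3, Ldha, Pdk1 and Ndrg1. They were taken by symbol, with the probe set of the highest mean kept where a symbol had several, and all 10 were found, each on 1 probe set, among 11861 genes in the table. The samples were 12 expression arrays of spheroids of primary hepatocytes, small cell aggregates that form when plated liver cells cannot attach to the well. Spheroids were made from 4 preparations, male 1, male 2, female 1 and female 2, each of them cells pooled from 3 C57BL/6 mice and frozen before use. RNA of each was taken 1, 7 and 14 days after the spheroids had formed, which gave 6 groups (male and female at days 1, 7 and 14) of 2 arrays. All groups shared the strain, the freezing and the culture format, the labels give no treatment and no age, and no group of fresh liver or of cells at another oxygen level was analysed here. Values are log2 intensities, on which a difference of 1 is a doubling, and levels of different genes cannot be set against each other because each has its own probes.

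In normal oxygen, prolyl hydroxylases such as EGLN1 and EGLN3 mark the alpha subunits of hypoxia-inducible factor (HIF), and the von Hippel-Lindau protein then sends them for degradation. When oxygen falls the alpha subunits persist, pair with ARNT and bind DNA at a short element whose core is ACGTG or GCGTG. Among the genes they are known to raise are vessel-directed signals (Adm, Vegfa), a brake on the pathway itself (Egln3), glucose uptake and glycolysis (Slc2a1, Pfkfb3, Ldha), the switch that keeps pyruvate out of mitochondria (Pdk1) and mitochondrial removal (Bnip3). In the liver lobule oxygen drops along the path of the blood, and hepatocytes near the central vein work at a lower oxygen level than those near the portal tract.

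The array labels give hepatocytes, and 9 of 10 hepatocyte marker genes were measured. Their mean log2 level lay between 11.92 and 12.08 on every array, near the top of the scale (highest value of the table, 12.84), and 0 of 9 passed the test between any days. With a trended and robust variance Hnf4a, a transcription factor of hepatocytes, passed as lower at day 14 than at day 1 (-0.15, adjusted p = 0.0188) and Cps1, of the urea cycle, as lower at day 14 than at day 7 (-0.19, 0.0265). Array medians lay between 7.47 and 7.53, and the paired arrays of a group correlated at 0.984 to 0.99 across genes. The lowest maximum of any gene over the arrays was 4.79, so a filter on low values preceded deposit, and all 10 genes stand in the table after it. Levels of the 10 genes ran between 5.12 and 11.5, all above that mark. The lowest stood near it, so the sizes of differences that use them are less firm. Adm was 5.13 in male 1 at day 7, and 5.23 and 5.12 in male 1 and male 2 at day 14. Ankrd37 was 5.15 in male 1 at day 14.

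RefSeq promoter sequences (GRCm38.p6) were matched for 9 of the 10 genes, all but Ndrg1, in 13 windows, since 4 genes have alternative starts. The 250 bases before the start are shown for the 3 genes with the smallest adjusted p between days 14 and 1 (Adm, Bnip3 and Ankrd37) and for Ldha, whose difference between those days did not pass and whose window holds the most ACGTG copies. Capitals mark ACGTG and GCGTG on either strand, so that CACGT and CACGC are the same cores read on the other strand. The Adm window is chr7:110627407-110627656 on the plus strand, that of Ankrd37 is chr8:45999851-46000100 on the minus strand, that of Bnip3 is chr7:138909507-138909756 on the minus strand and that of Ldha is chr7:46845554-46845803 on the plus strand.
Adm: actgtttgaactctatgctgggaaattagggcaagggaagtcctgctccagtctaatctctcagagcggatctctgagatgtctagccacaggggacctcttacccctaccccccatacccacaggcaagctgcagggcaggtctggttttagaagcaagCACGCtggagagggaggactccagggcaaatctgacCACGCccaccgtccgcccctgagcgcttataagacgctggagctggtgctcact
Ankrd37: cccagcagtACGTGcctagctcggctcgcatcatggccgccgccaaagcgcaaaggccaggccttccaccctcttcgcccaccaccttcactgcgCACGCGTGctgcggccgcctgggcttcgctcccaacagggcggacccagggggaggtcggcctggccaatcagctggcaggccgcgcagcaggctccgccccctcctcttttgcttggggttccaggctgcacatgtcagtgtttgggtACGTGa
Bnip3: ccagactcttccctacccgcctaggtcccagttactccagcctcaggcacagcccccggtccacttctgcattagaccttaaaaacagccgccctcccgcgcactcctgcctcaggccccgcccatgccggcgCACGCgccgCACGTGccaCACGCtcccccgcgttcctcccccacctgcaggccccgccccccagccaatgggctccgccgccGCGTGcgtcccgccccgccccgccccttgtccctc
Ldha: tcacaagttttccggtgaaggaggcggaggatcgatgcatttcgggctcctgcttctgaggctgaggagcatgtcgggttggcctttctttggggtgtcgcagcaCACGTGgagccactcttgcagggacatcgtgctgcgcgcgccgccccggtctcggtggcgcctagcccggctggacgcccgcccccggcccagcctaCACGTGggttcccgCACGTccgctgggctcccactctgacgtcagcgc
The Adm window held 0 copies of ACGTG and 2 of GCGTG, the Ankrd37 window 2 and 2, the Bnip3 window 2 and 3, and the Ldha window 5 and 0. ACGTG overlaps the E-box CACGTG, which other factors bind, and each CACGTG counts here as ACGTG on both strands: the Ldha window held 2 such E-boxes and the Bnip3 window 1. Over the 13 windows of the 9 genes, 8 held ACGTG, 8 held GCGTG and 11 held either, and each of the 9 genes had at least 1 window with either. Among all 32851 promoter windows of the table, read over the same 250 bases, 16.6% held ACGTG, 28.2% held GCGTG, 6.02% held CACGTG and 38.6% held ACGTG or GCGTG. These are matches of letters, and the arrays measured no binding.

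Across the 2 weeks of culture, 5 of the 10 genes fell: Adm, Ankrd37, Bnip3, Pdk1 and Pfkfb3 were lower at day 14 than at day 1 with an adjusted p under 0.05, and none was higher. Over all genes 14.4% passed in this comparison, 6.80% as lower and 7.59% as higher. All 10 differences were below 0, with a median of -0.38 on the log2 scale, against a median of 0.01 and 48.5% below 0 over all genes. The 2 largest falls were those of Adm and Ankrd37, at 2.86-fold and 2.88-fold. Ldha, Slc2a1 and Ndrg1 had the smallest differences. The 4 preparations at day 14 lay entirely below the 4 at day 1 for Adm, Ankrd37, Bnip3 and Pfkfb3, which is 4 of 10 genes beside 7.57% of all genes. In bulk RNA, fewer cells of a type and less RNA per cell cannot be told apart.

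**Figure D1:**
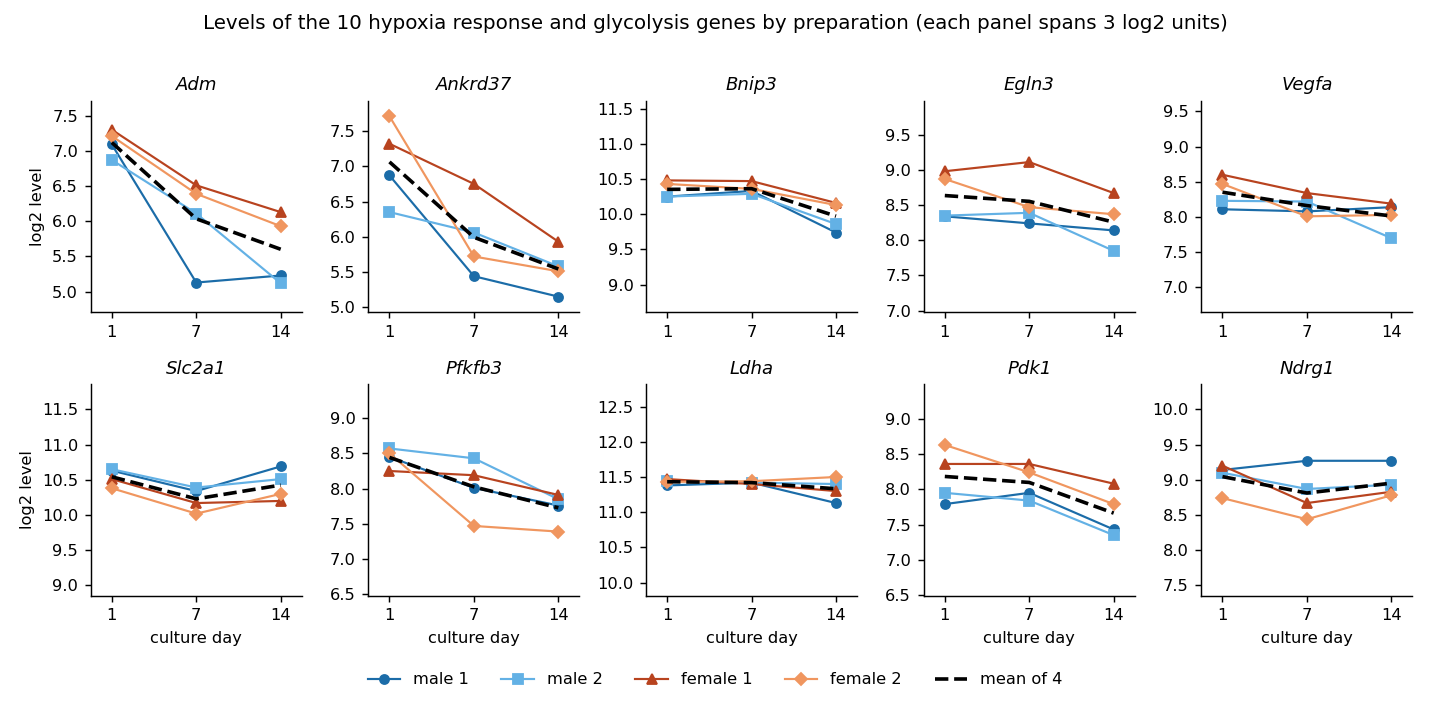
Log2 level (y axis) of each of the 10 genes against culture day (x axis), with 1 coloured line for each of the 4 preparations and the dashed line for their mean; every panel spans the same number of log2 units. Adm and Ankrd37 fall most, Bnip3 keeps its level to day 7 and is lower at day 14, and the Ldha lines stay between 11.13 and 11.50.

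Among the vessel-directed signals, Adm encodes adrenomedullin, a peptide that widens blood vessels. Its log2 level in male 1 and male 2 was 7.09 and 6.87 at day 1, 5.13 and 6.11 at day 7, and 5.23 and 5.12 at day 14. In female 1 and female 2 it was 7.30 and 7.21 at day 1, 6.51 and 6.39 at day 7, and 6.13 and 5.93 at day 14. Every preparation at days 7 and 14 lay below every preparation at day 1. The difference was -1.51 ± 0.18 for day 14 against day 1 (SE of the model, limma, adjusted p = 0.00138) and the call held without any single preparation (adjusted p = 0.0055 to 0.037). For day 7 against day 1 it was -1.08 ± 0.18 (adjusted p = 0.0165), a call lost without male 1 (0.0663), female 1 (0.137) or female 2 (0.144). Male 1 was at its lowest at day 7, male 2 dropped by 0.99 between days 7 and 14, and day 14 against day 7 did not pass over the 4 preparations (-0.43 ± 0.18, adjusted p = 0.348).

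Vegfa, the main growth factor for endothelial cells, was 8.11 and 8.23 in the male preparations at day 1, 8.08 and 8.22 at day 7, and 8.14 and 7.70 at day 14. In the female preparations it was 8.60 and 8.47 at day 1, 8.34 and 8.01 at day 7, and 8.19 and 8.03 at day 14. Day 14 was below day 1 in 3 of 4 preparations, and male 1 was the exception at 0.03. The ranges of the 2 days overlapped, and the difference of -0.34 ± 0.12 did not pass (adjusted p = 0.0884, 95% interval -0.60 to -0.07). With a trended and robust variance it did (0.0246).

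For the receptors of both signals, 7 of 10 listed genes stood in the table. Between days 1 and 14, 2 fell and 0 rose (median -0.35), beside 6.80% of all genes lower and 7.59% higher. Kdr, the main VEGF receptor of endothelial cells, fell by 1.33 (± 0.34, adjusted p = 0.0344), a call lost without female 1 (0.168) or female 2 (0.182), and its values at day 1 reached no higher than 5.09, near the filter mark of 4.79. Ackr3, a scavenger receptor that takes up adrenomedullin, fell by 1.11 (± 0.18, adjusted p = 0.00586), a call lost without the same preparations (0.0641 and 0.0754). Ackr3 was also lower at day 7 than at day 1 (-0.88 ± 0.18, adjusted p = 0.0349), but not with the preparation as a block (0.0658), nor without male 1 (0.085), female 1 (0.216) or female 2 (0.166). All 4 Ackr3 values at day 14, and all but that of female 2 at day 7, lay under 4.79, so the sizes of both falls are not firm. Calcrl, the receptor through which adrenomedullin signals together with RAMP proteins, was at -0.55 ± 0.24 for day 14 against day 1 (adjusted p = 0.173). The VEGF receptors Flt1 and Flt4 went the other way in all 4 preparations, at 0.67 ± 0.26 (adjusted p = 0.126) and 0.34 ± 0.12 (0.0883). Of the 7 receptor genes, 5 lay below 0 and 2 above it.

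Markers of non-parenchymal cells moved over the same days, most of them in the same direction as these genes. Of the endothelial markers 9 of 12 were measured and 6 of them fell (median -1.33). Of the stellate cell markers 12 of 12 were measured and 8 fell (median -1.38). Over all genes 6.80% were lower and 7.59% higher at day 14 than at day 1 by the same test. The mean log2 level of the endothelial list was 3.91 to 4.17 in male and 4.96 to 5.38 in female preparations at day 14, against 5.52 to 6.19 in male and 6.06 to 6.20 in female preparations at day 1. Pecam1, Cdh5, Kdr, Tie1 and Emcn averaged under 4.79 in both sexes at day 14. Emcn exceeded 4.79 only at day 1, so it stands in the table through that day and its fall has no firm size. The stellate list was at 4.38 to 5.37 in male and 6.43 to 6.83 in female preparations at day 14, against 7.13 to 7.35 in male and 7.21 to 7.25 in female preparations at day 1. Of the stellate markers, Lrat alone averaged under 4.79 in female preparations at day 14, against 8 of 12 in male preparations. Macrophage markers had 12 of 14 measured, with 1 higher and 0 lower (median 1.01). Their part in the falls of Adm, Ankrd37 and the other genes was not tested.

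**Figure D2:**
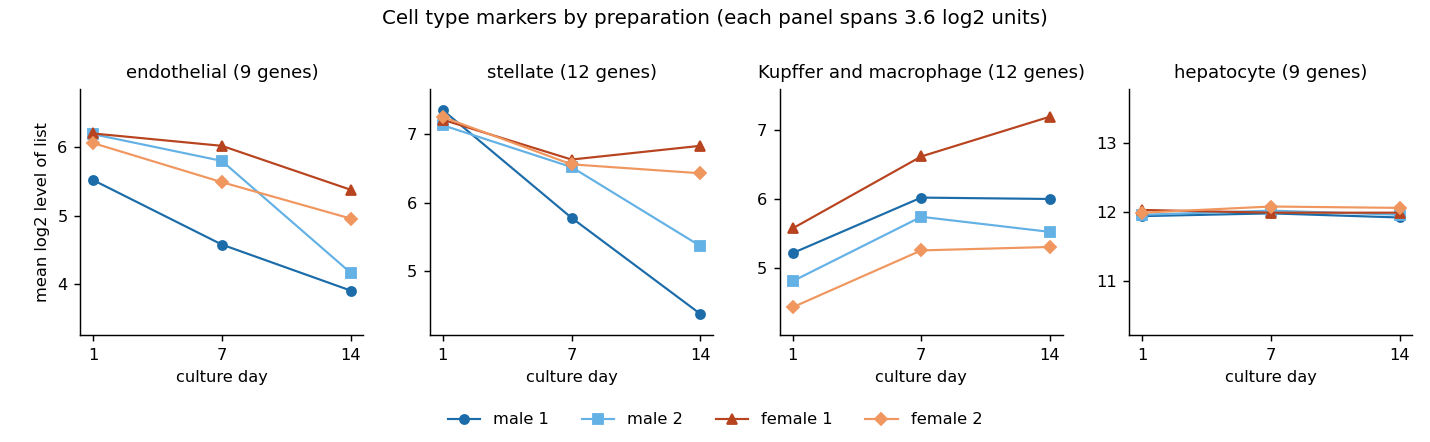
Mean log2 level of each marker list (y axis) by culture day (x axis), with 1 line per preparation. Endothelial and stellate markers are lower at day 14 than at day 1 in all 4 preparations, most so in the male ones, macrophage markers spread widely between preparations, and hepatocyte markers stay near 12.

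Ankrd37, an ankyrin repeat protein and known direct target of HIF, was 6.87 and 6.35 in male 1 and male 2 at day 1, 5.44 and 6.06 at day 7, and 5.15 and 5.58 at day 14. Female 1 and female 2 had 7.32 and 7.71 at day 1, 6.75 and 5.72 at day 7, and 5.93 and 5.51 at day 14. No preparation at day 14 reached the lowest value at day 1, and the fall was uneven, with -0.77 in male 2 and -2.21 in female 2. The mean difference was -1.52 ± 0.26 (adjusted p = 0.00653), and the call was lost without male 1 (0.0974). At day 7 the difference to day 1 was of the same order as that of Adm but less even, at -1.07 ± 0.26 (adjusted p = 0.057), and it passed with a trended and robust variance (0.0235) and with low genes left out (0.0428).

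Bnip3, which sits on the outer mitochondrial membrane and marks mitochondria for removal, was near its starting level at day 7 and lower at day 14. Its level was 10.25 and 10.25 in the male preparations at day 1, 10.33 and 10.29 at day 7, and 9.74 and 9.86 at day 14. The female preparations had 10.48 and 10.43 at day 1, 10.47 and 10.36 at day 7, and 10.16 and 10.13 at day 14. All 4 values at day 14 lay below all 8 earlier ones. Day 7 differed from day 1 by 0.01 ± 0.06 (adjusted p = 0.957, 95% interval -0.12 to 0.14). Day 14 was 0.39 ± 0.06 lower than day 7 on the log2 scale (-0.39, adjusted p = 0.0323), and Bnip3 was the only 1 of the 10 genes to pass between those days, where 0.489% of all genes passed, 0.185% passed as lower and 2.35% had lower values without overlap. That call was lost whichever preparation was left out (0.183 to 0.359). Day 14 against day 1 gave -0.38 ± 0.06 (adjusted p = 0.00364), lost without male 1 (0.0878) or male 2 (0.0545).

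Pdk1 encodes a kinase that shuts off pyruvate dehydrogenase, so that pyruvate stays out of the citric acid cycle. In the male preparations it was 7.79 and 7.95 at day 1, 7.95 and 7.84 at day 7, and 7.43 and 7.35 at day 14. In the female preparations it was 8.36 and 8.63 at day 1, 8.36 and 8.24 at day 7, and 8.08 and 7.79 at day 14. Within each preparation day 14 was the lowest of the 3 days, while the ranges over all 4 preparations overlapped, because the female values at day 14 reached the male values at day 1. Pdk1 fell by 0.52 between days 1 and 14 (± 0.09, adjusted p = 0.00753). The call was lost without male 1 (0.0795), male 2 (0.122) or female 2 (0.0669). Day 14 against day 7 gave -0.44 ± 0.09 (adjusted p = 0.0931), which passed with a trended and robust variance (0.0126).

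Around Pdk1, 11 of 13 other genes of pyruvate entry into mitochondria were measured. Between days 1 and 14, 0 rose and 0 fell by limma (median -0.01), beside 14.4% of all genes that passed. Pdp2, a phosphatase that works against the PDK kinases, was at 0.37 ± 0.11 (adjusted p = 0.063), and at an adjusted p of 0.0154 with the preparation as a block. The related kinases Pdk2 and Pdk4 were at -0.21 ± 0.07 (0.095) and -0.32 ± 0.18 (0.269).

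Pfkfb3 makes the sugar phosphate that activates phosphofructokinase and so speeds glycolysis. Male 1 and male 2 had 8.45 and 8.57 at day 1, 8.01 and 8.43 at day 7, and 7.76 and 7.85 at day 14. Female 1 and female 2 had 8.25 and 8.50 at day 1, 8.19 and 7.47 at day 7, and 7.91 and 7.39 at day 14. Day 14 lay below day 1 without overlap, by 0.34 in female 1 and by 1.12 in female 2. The mean difference of -0.72 ± 0.18 passed (adjusted p = 0.033), but not without male 1 (0.193), male 2 (0.185) or female 2 (0.0894). At day 7 it stood at -0.42 ± 0.18 (adjusted p = 0.248).

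**Figure D3:**
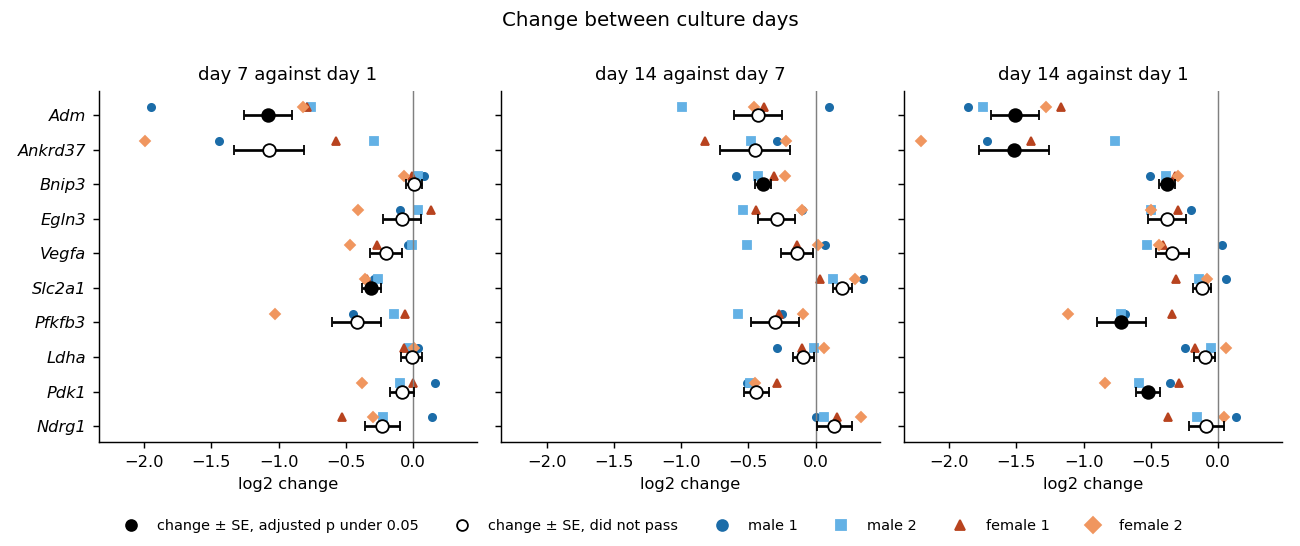
Log2 difference (x axis) of each of the 10 genes (rows) for day 7 against day 1, day 14 against day 7 and day 14 against day 1. Large circles are the model's differences with SE bars, filled where the adjusted p was under 0.05, and small symbols are the 4 preparations. In the panel of day 14 against day 1 the 5 filled circles are Adm, Ankrd37, Bnip3, Pfkfb3 and Pdk1.

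Slc2a1 encodes GLUT1, the glucose transporter of most cell types other than hepatocytes. The male preparations had 10.63 and 10.65 at day 1, 10.34 and 10.39 at day 7, and 10.69 and 10.51 at day 14, and the female ones had 10.51 and 10.38, 10.17 and 10.02, and 10.20 and 10.30. Day 7 was the lowest day in each of the 4 preparations. The difference between days 7 and 1 was -0.31 ± 0.07 (adjusted p = 0.0402), which with Adm made 2 of 10 genes lower at day 7, beside 1.98% of all genes lower and 4.72% changed in either direction. It did not pass with the preparation as a block (0.0663), after a repeated quantile normalization (0.0556), nor in any fit that left out a preparation (0.155 to 0.274), and the ranges of the days overlapped. Adm alone had no overlap between days 7 and 1 (1 of 10 genes, beside 5.19% of all genes lower without overlap). Day 14 was above day 7 by 0.20 ± 0.07 (adjusted p = 0.246), and differed from day 1 by -0.12 ± 0.07 (adjusted p = 0.322, 95% interval -0.27 to 0.04).

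Ldha, the lactate dehydrogenase subunit that turns pyruvate into lactate, had mean levels over the 4 preparations of 11.43 ± 0.04 (SD) at day 1, 11.42 ± 0.02 at day 7 and 11.33 ± 0.16 at day 14. Male 1 at day 14 was the lowest array at 11.13 and female 2 at day 14 the highest at 11.50, so the spread was widest at the last day. Day 14 against day 1 gave -0.10 ± 0.08 (adjusted p = 0.436, 95% interval -0.28 to 0.07).

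Ndrg1, a stress-induced protein linked to cell differentiation, had mean levels over the 4 preparations of 9.04 ± 0.21 (SD) at day 1, 8.81 ± 0.36 at day 7 and 8.95 ± 0.22 at day 14. It was higher at day 14 than at day 1 in male 1 (0.13) and female 2 (0.04), and lower in male 2 (-0.16) and female 1 (-0.37). The mean difference of -0.09 ± 0.13 did not pass (adjusted p = 0.73, 95% interval -0.40 to 0.22). Its relative Ndrg3 rose by 0.68 (± 0.11, adjusted p = 0.00508), and not without male 2 (0.0732) or female 2 (0.0676).

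Egln3 is the prolyl hydroxylase PHD3, which HIF induces and which in turn marks HIF alpha subunits. It was 8.34 and 8.35 in male preparations at day 1, 8.24 and 8.39 at day 7, and 8.14 and 7.85 at day 14, and 8.98 and 8.87, 9.11 and 8.47, and 8.67 and 8.37 in female preparations. Day 14 was below day 1 in all 4 preparations, by 0.20 to 0.50. The spread between preparations was as large, the ranges overlapped, and -0.38 ± 0.14 did not pass (adjusted p = 0.121, 95% interval -0.70 to -0.05).

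The oxygen-sensing machinery itself held 16 genes, all measured, of which 1 rose and 1 fell between days 1 and 14 (median 0.04). In that comparison 14.4% of all genes passed. The alpha subunits Hif1a and Epas1 were at 0.10 ± 0.07 (adjusted p = 0.394) and -0.09 ± 0.09 (0.565), and their partner Arnt at 0.03 ± 0.06, which did not pass either. Hif3a, an alpha subunit whose short forms are known to restrain the pathway, was 4.75 and 5.26 in male and 4.31 and 3.86 in female preparations at day 1. At day 14 it was 6.06 and 5.46 in male and 5.96 and 5.64 in female preparations, so the days did not overlap. It rose by 1.23 (± 0.18, adjusted p = 0.00347), a call that held without any single preparation (0.0144 to 0.0473), though 3 of its 4 values at day 1 lay under 4.79. Egln1, the hydroxylase PHD2 that does most HIF marking in many cells, fell by 0.32 (± 0.07, adjusted p = 0.0155), a call lost whichever preparation was left out (0.0952 to 0.126). Vhl was at -0.19 ± 0.07 (0.103).

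Other known HIF targets had 31 of 43 listed symbols measured, with Ero1a listed also under its older symbol Ero1l. Of the 31 genes, 8 fell and 0 rose at day 14 against day 1, beside 6.80% of all genes lower and 7.59% higher. Below 0 were 28 of 31 differences (median -0.19), beside 48.5% over all genes. The list was chosen with earlier results of these data known. The largest fall was that of Ndufa4l2, a mitochondrial protein that lowers respiratory complex activity in hypoxia. It was 3.64 and 4.43 in male and 6.22 and 5.17 in female preparations at day 14, against 6.42 and 7.60 in male and 7.77 and 7.10 in female preparations at day 1. The days did not overlap, the difference was -2.35 ± 0.42 (adjusted p = 0.00783), and both male values at day 14 lay under 4.79, so its size may be understated. The call was lost without male 1 (0.0591) or male 2 (0.0652). Lox, the enzyme that cross-links collagen, fell by 1.60 (± 0.14, adjusted p = 0.000346) and held without any single preparation (0.00636 to 0.0148). Vldlr, a lipoprotein receptor, fell by 0.95 (± 0.14, adjusted p = 0.00396), a call lost without male 1 (0.0523) or male 2 (0.059). Ndufa4l2 and Lox are also expressed by pericyte-like and matrix-producing cells, whose markers moved as given above. The part of those cells in these 2 falls was not tested. By day 7 only Lox (-1.73 ± 0.14, adjusted p = 0.00219) and Ero1a, an oxidase of protein folding (-0.32 ± 0.07, 0.0402), had passed among the 31. Ero1a was lower at day 14 as well, by -0.53 ± 0.07 against day 1 without overlap (adjusted p = 0.00191), a call lost without male 1 (0.0599) or male 2 (0.054). At day 7 it did not pass with the preparation as a block (0.0578) or in any fit that left out a preparation (0.0915 to 0.32).

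Of the remaining enzymes and transporters of glycolysis, 20 of 25 were measured. Between days 1 and 14, 2 rose and 3 fell (median -0.05, 11 of 20 below 0), beside 7.59% of all genes higher and 6.80% lower. Slc16a3, the lactate exporter MCT4 and a HIF target, was 4.98 and 4.57 in male and 5.80 and 5.04 in female preparations at day 14, against 6.19 and 6.18 in male and 6.83 and 6.38 in female preparations at day 1. The days did not overlap, and it fell by 1.30 (± 0.24, adjusted p = 0.0101), lost without male 1 (0.0974) or male 2 (0.126). Pfkl, the liver phosphofructokinase, fell by 0.59 (± 0.09, adjusted p = 0.0042), also lost without male 1 (0.0523) or male 2 (0.0837). Pgk1, a kinase of lower glycolysis that is a known HIF target, fell by 0.36 (± 0.06, adjusted p = 0.00525), lost without male 1 (0.106) or male 2 (0.0799). Hk1, a hexokinase, rose by 0.80 (± 0.13, adjusted p = 0.00601), lost without male 1 (0.0729), male 2 (0.0684) or female 2 (0.0559), and the aldolase gene Aldoc rose by 0.47 (± 0.10, 0.0163), lost without male 1 (0.0665), male 2 (0.185) or female 1 (0.117). At day 7 Aldoc was already higher than at day 1 by 0.82 ± 0.10, without overlap (adjusted p = 0.00526). The call was lost whichever preparation was left out, and the difference was 0.77 to 0.88 in those fits. Aldoc was the only gene of this list to pass between those days (1 of 20, beside 4.72% of all genes). Between days 7 and 14 it was at -0.35 ± 0.10 (adjusted p = 0.169). Pgk1 is named here after its values were seen, and the naming rule picked Aldoc for day 7 against day 1. Gapdh differed by 0.00 ± 0.06 (0.985).

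**Figure D4:**
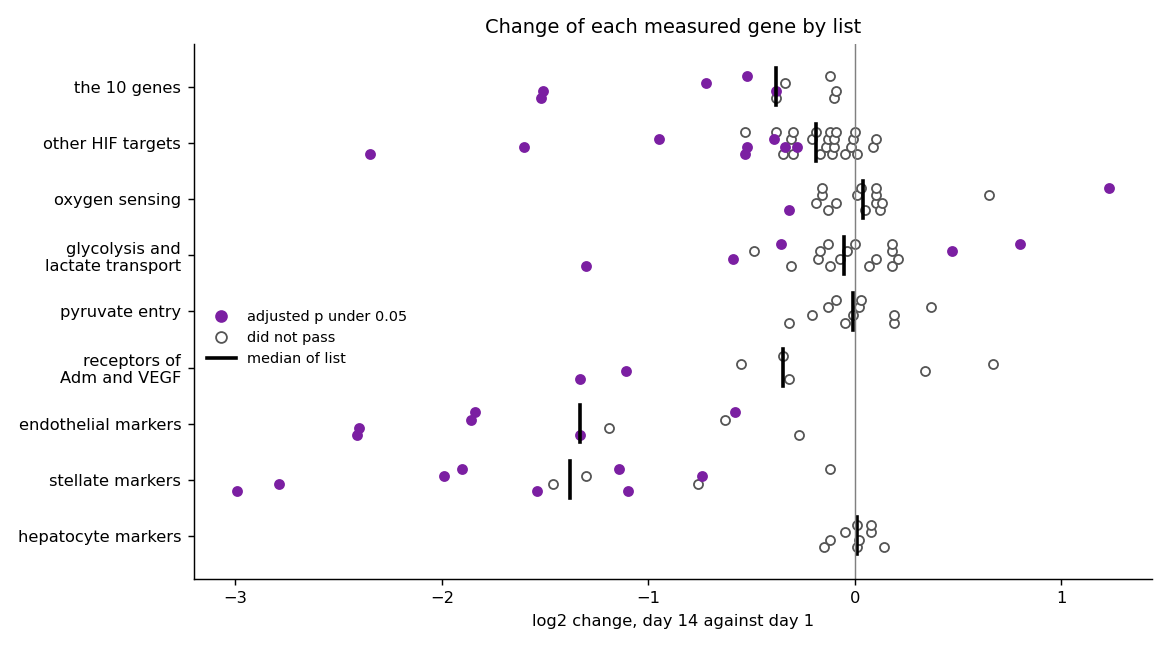
Log2 difference of each measured gene for day 14 against day 1 (x axis) by list (rows), with filled circles for an adjusted p under 0.05 and a bar at each list's median. The 10 genes and the other HIF targets lie mostly below 0, oxygen-sensing and pyruvate entry genes lie around 0, and endothelial and stellate markers lie furthest below 0.

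Close relatives of the 10 genes gave 17 measured of 23 listed symbols, with Vegfd listed also under its older symbol Figf. Of the 17 genes, 1 rose (Ndrg3) and 3 fell between days 1 and 14 (median -0.10), beside 7.59% of all genes higher and 6.80% lower. Pgf, the placental growth factor of the VEGF family, fell by 1.66 (± 0.30, adjusted p = 0.00783), a call lost without female 1 (0.0641) or female 2 (0.0696). Adm2, the peptide related to adrenomedullin, fell by 0.53 (± 0.10, adjusted p = 0.00786), a call lost without male 1 (0.102) or male 2 (0.0915). Egln1 was the third. Bnip3l, Vegfb and the liver glucose transporter Slc2a2 were at -0.14 ± 0.06 (0.197), -0.08 ± 0.10 (0.637) and 0.18 ± 0.08 (0.174). Of the lists, Egln1, Egln2, Bnip3l, Pfkfb4, Pdk2, Pdk4, Slc2a2, Ldhb and Kdr belong to 2 each, so the counts are not independent.

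Between the sexes 0 of 10 genes passed the limma test of male minus female over all days, where 0.177% of all genes passed. At an unadjusted p under 0.05 there were 6 of 10, beside 2344 of 11861 over all genes, and a trended and robust variance called 6 of 10, beside 974 of 11861. For 5 of 10 genes both male preparations lay on the same side of both female ones at each of the 3 days, beside 11.3% of all genes. Adm, Bnip3, Egln3 and Pdk1 were lower in male preparations at each day (5.50% of all genes did so), and Slc2a1 was higher (5.81% did so). With 2 preparations a sex, these differences cannot be told apart from differences between the pools.

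**Figure D5:**
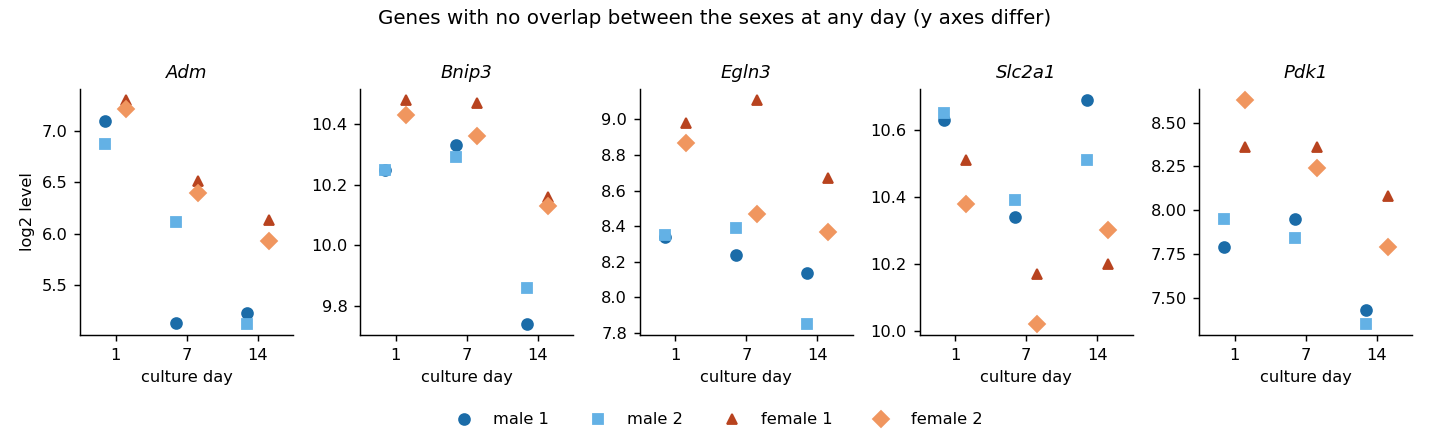
Log2 level (y axis, range set per panel) of the 5 genes in which male and female preparations did not overlap at any culture day (x axis), male preparations in blue to the left and female ones in orange to the right. Adm, Bnip3, Egln3 and Pdk1 are lower and Slc2a1 is higher in male preparations.

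Pdk1 had the smallest p of the 10, at -0.53 ± 0.06 for male minus female over all days (adjusted p = 0.0743). It passed with low genes left out (0.0459) and with a trended and robust variance (0.00136). Adm was at -0.65 ± 0.10 (0.0912), Egln3 at -0.53 ± 0.13 (0.15), Bnip3 at -0.22 ± 0.06 (0.181) and Slc2a1 at 0.27 ± 0.06 (0.135), and each passed with a trended and robust variance (0.00784, 0.0372, 0.0207 and 0.00587). Ankrd37, at -0.58 ± 0.14 (0.147), was separated only at day 1, and passed in that setting as well (0.0267). Vegfa was at -0.19 ± 0.09 (0.341), Ldha at -0.06 ± 0.07 (0.712), Pfkfb3 at 0.23 ± 0.14 (0.447) and Ndrg1 at 0.32 ± 0.13 (0.278). The separation of Adm was smallest at day 1 (-0.28 ± 0.26, adjusted p = 0.71) and stood at -0.83 ± 0.26 at day 7 (0.237) and -0.86 ± 0.26 at day 14 (0.171).

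Within single days 0 of 10 genes passed by limma at day 1, day 7 or day 14, where 0.767%, 0.354% and 1.06% of all genes passed, and unadjusted p-values under 0.05 numbered 4, 5 and 5 of 10, beside 1602, 1570 and 1762 of 11861 over all genes. A trended and robust variance called 1 gene at day 1 (Pdk1, 0.00938) and 3 at day 14 (Bnip3 0.0108, Slc2a1 0.0187, Pdk1 0.0225), beside 292 and 411 of all genes in that setting, against 91 and 126 in the main one. Endothelial and stellate markers also stood lower in male preparations at day 14, by medians of -0.61 (9 of 9 below 0) and -2.07 (12 of 12 below 0), with list levels as given above. Macrophage markers did so by a median of -0.55 (11 of 12 below 0), while 46.8% of all genes were below 0. At day 7 the medians of the endothelial, stellate and macrophage markers were -0.61, -0.44 and -0.09. At day 1 they were -0.16, 0.08 and 0.10. Their part in the sex differences was not tested.

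The change over days was compared between the sexes directly. The male change minus the female change passed for 0 of 10 genes in each pair of days, as for 0.00% of all genes, with the lowest adjusted p at 0.881 for day 14 against day 1, 0.99 for day 7 against day 1 and 0.999 for day 14 against day 7. Unadjusted p-values under 0.05 were found for 0 of 10 genes in each, against 815, 565 and 485 of all genes. The differences ran between -0.58 and 0.55 for day 14 against day 1. For Bnip3 the male change minus the female change was -0.14 ± 0.11 for day 14 against day 1 (adjusted p = 0.925, 95% interval -0.40 to 0.11).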

How the data were processed

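The deposited values are log2 intensities from biotin-labelled total RNA, 1 per probe set and array, as the authors deposited them. The submitters' processing notes name RMA, Transcriptome Analysis Console 4.0 and Partek 7.0, without roles or order. Neither the array build nor the annotation is given in the sources used here, and the step that removed low values is likewise unnamed. The platform annotation gave 1 symbol to 11889 of 13081 probe sets, none to 1192 and several to 0, and all 11889 matched a mouse gene list by gene number. Of the probe sets of the 19 symbols with several, the one with the highest mean was kept. Probe sequences were not analysed here, so a probe set of a gene family may read a relative. Depth does not apply to arrays, whose number limits the precision.

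R 4.3.3 with limma 3.58.1 fitted 1 mean per group of sex and day over all 12 arrays (lmFit, contrasts.fit, eBayes), with Benjamini-Hochberg adjustment over 11861 genes, two-sided, and a threshold of 0.05. Day comparisons average the sexes. Sex over all days used the mean of each preparation's 3 arrays. The fit was tested on simulated data with independent noise on every array, which leaves out any effect shared by the arrays of a preparation. The spread behind each p-value is that of pools of mice. Each ± on a difference is the model's standard error.

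Alternatives were the preparation as a block, leaving out each preparation, centring each array on its median, quantile normalization of the values again, leaving out genes with a mean under 5, a trended and robust variance, and the mean of a symbol's probe sets. The same preparation was sampled at each day per the labels, which pairs the arrays. Deviations from the group means correlated between days of a preparation at 0.036, 0.104 and 0.224 in male and 0.066, 0.078 and 0.324 in female preparations. With 2 preparations a sex, the deviations of the pair are mirror images.

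The 10 genes, the lists of related genes and the cell type markers were chosen with earlier results of these data known. Named were all 10, and from each list the passing genes of largest change in a day comparison, at most 3, or where no gene passed the 1 of largest change. Not all of these are used. Lists are described by counts and medians, and further genes of them are named as known parts of the pathway. Promoter sequences are 250 bases before each RefSeq start (GRCm38.p6).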

Additional observations from a re-analysis of the deposited data

Results flagged for a closer look

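Of 132 sets of 4 preparations at 1 day, over the 10 genes and the list genes picked by the naming rule, 5 held an array that stood apart, with a gap to its nearest neighbour above Dixon's critical share of the whole range, which chance gives in about 1 set in 20. Pdk4, a relative of Pdk1, was 6.34 in female 2 at day 1, against 6.76 to 6.84 in the other preparations. Kdr was 4.26 in male 1 at day 1, against 5.04 to 5.09 in the others. Eng, an endothelial marker, was 6.84 in male 1 at day 7, against 8.04 to 8.07. Epcam, a bile duct marker, was 4.74 in female 2 at day 7, against 3.74 to 3.86, all under 4.79. Clec4f, a Kupffer cell marker, was 5.58 in female 1 at day 14, against 4.10 to 4.33 in the others.

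The same genes were searched for opposite changes in the sexes, and other list genes were not. In 3 results both male preparations moved one way and both female preparations the other. Bnip3 differed by 0.08 and 0.04 in male and by -0.01 and -0.07 in female preparations for day 7 against day 1, a male minus female difference in change of 0.10 that did not pass (limma, adjusted p = 0.99). Clec4f moved by -0.53 and -0.38 in male and by 0.48 and 0.11 in female preparations for day 14 against day 1, a difference of -0.75 (adjusted p = 0.956). Col1a2, a stellate marker, moved by -0.84 and -0.98 in male and by 0.13 and 0.10 in female preparations for day 14 against day 7, a difference of -1.02 (adjusted p = 0.999).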

How the results depend on the processing

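Of the 10 genes, 5 passed for day 14 against day 1, and 1 to 5 when a preparation was left out. For day 7 against day 1, 2 passed in the main setting, 1 with the replicate block (the preparation as a term), 1 after a repeated quantile normalization (which lost Slc2a1), and 0 to 1 without a preparation. For day 14 against day 7, 1 passed in the main setting and 2 with a trended and robust variance, against 0 without any preparation. For male minus female, 0 passed in the main setting at day 1, at day 14 and over all days, against 1, 3 and 6 with a trended and robust variance, and 1 over all days with low genes left out. All genes called in these comparisons were 91, 126 and 21, against 292, 411 and 974 with that variance and 133 over all days with low genes left out. The replicate block ended the calls of Slc2a1 (0.0663), Ackr3 (0.0658) and Ero1a (0.0578) for day 7 against day 1, and added Pdp2 (0.0154) for day 14 against day 1, Ndufa4l2 (0.00959) for day 14 against day 7 and Lyz2 (0.00698) for day 7 against day 1. It changed no other call among the 10 genes and the list genes picked by the naming rule. Only leaving out a preparation turned a sign, always of a difference that had not passed. The ranges were -0.191 to 0.014 for Ndrg1 (day 14 against day 1), -0.288 to 0.003 for Vegfa (day 14 against day 7) and -0.112 to 0.001 for Ldha (male minus female). For day 7 against day 1 they were -0.007 to 0.024 for Bnip3, -0.219 to 0.05 for Egln3, -0.034 to 0.005 for Ldha, -0.178 to 0.014 for Pdk1 and -0.006 to 0.287 for Tat. Over all genes, day 14 against day 1 called 1706 (494 to 826 without a preparation), day 7 against day 1 called 560 (40 to 75; 956 with a trended and robust variance) and day 14 against day 7 called 58 (0 to 8; 101 with the replicate block, 105 with low genes left out, 309 with a trended and robust variance). Fewer arrays entered each fit without a preparation, and the cause of the other shifts was not tested.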

Other observations

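Of 8 listed bile duct markers 4 were measured, and they did not move together between days 1 and 14: 2 passed as higher and the other two were below 0. Krt19, a keratin of bile duct cells, was 5.89 and 6.30 in male and 6.48 and 6.15 in female preparations at day 14, against 4.76 and 4.42 in male and 3.90 and 4.50 in female preparations at day 1. All its values at day 1 lay under 4.79, the level every gene of the table reaches on some array, so Krt19 stands in the table through its higher days and its difference (adjusted p = 0.00035 by limma) has no firm size. Epcam, a surface protein of the same cells, exceeded 4.79 on 1 array (male 2 at day 14), so no difference is given for it. Krt7 was at -0.56 ± 0.22 (0.134) and Sox9 at -0.22 ± 0.10 (0.201). Lyz2 and Cd5l, genes of macrophages, were at 2.38 ± 0.72 (0.0599) and 2.08 ± 0.67 (0.0753). Csf1r rose by 1.21 (± 0.29, 0.0268), a call lost whichever preparation was left out (0.0605 to 0.149), and its values of 4.03 and 4.17 in male 2 and female 2 at day 1 lay under 4.79.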
